A study of Caenorhabditis elegans with 12 samples.

Results

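Of 12 single-colour arrays of the nematode Caenorhabditis elegans from a space flight study, 3 were of worms that never travelled. They were chosen by the condition in their labels, ground at 1 g with no transport, and were set against the 9 arrays of all other worms of the series, 3 each of static flight, flight in a centrifuge at 1 g, and ground control. Every condition held 1 array of each of 3 strains, which were N2 (wild type), LS292 dys-1(cx18) I, whose gene encodes dystrophin, and MT4930 ced-1(n1995) I, whose gene encodes an engulfment receptor of dying cells. The untransported worms stayed in an incubator at the home university in Dalian. The labels state neither how long they were kept nor their container, temperature or time of collection. For the flown worms, about 100000 dauer larvae were put on fresh solid medium in each container some 10 h before launch, flew for 16.5 days at 23 °C and were frozen 7 h after landing, and received 1.92 mGy of radiation in static flight and 2.27 mGy in centrifuge flight. The ground control was run in Beijing in the same kind of unit, 2 days later, for 16.5 days at 23 °C and with collection after 7 h. It is counted here with the carried worms, following the naming of the fourth group, although the labels do not say whether its worms made the journey to the launch site. What separates untransported from carried worms in these data is therefore the journey together with the incubator, the container, the site and the time of collection, which cannot be told apart. Each value is from whole worms of 1 array, the design states that repeats were technical and that the sample was not repeated, and what the p-values weigh a difference against is the spread from array to array.

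The dauer is a resting larva with its own cuticle and with lateral ridges, the alae, built partly of cuticlins. When food returns it resumes development, moults and becomes an adult, and each stage makes a cuticle from its own set of collagens. A hermaphrodite makes sperm as a late larva, then switches to oocytes, and the adult gut secretes yolk proteins, so that sperm, oocyte and yolk transcripts together follow the stage and age of a worm population. In whole worms, fewer cells of a type and less RNA per cell cannot be told apart.

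The 3 untransported arrays resembled each other about as much as the carried arrays did. The pairwise correlation of untransported arrays over all genes averaged 0.9521 (3 pairs), against 0.9178 for pairs of an untransported and a carried array (27 pairs) and 0.9497 for pairs of carried arrays (36 pairs). These ranges overlapped, at 0.9425 to 0.9612, 0.8307 to 0.9502 and 0.9079 to 0.9779. On the first principal component, with 41.2% of the variance, they lay at 28.35 (N2), 77.39 (dys-1) and 56.18 (ced-1), and the carried arrays from -71.02 upward, all below the lowest untransported one. The array medians ran from 225.6 to 252.4 intensity units, and the median difference over all genes was 0.00 on the log2 scale. The log2 intensity of ced-1 was 10.45, 10.68 and 10.28 on the untransported N2, dys-1 and ced-1 arrays, against 9.56 to 10.51 on the carried arrays (median 9.96), so the level did not mark the ced-1 strain. That of dys-1 was 7.51, 8.68 and 8.17, against 7.25 to 7.77 (median 7.32), and was not low in the dys-1 strain. Neither value checks the label, since the effect of these alleles on the transcript is not given in the sources used here.

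Untransported worms differed from carried worms in 1914 of 20018 genes at an adjusted p under 0.05 (limma, strain as a factor, Benjamini-Hochberg over all genes). Of these, 963 were higher (4.81% of all genes) and 951 lower (4.75%). Without adjustment 4916 genes had a p under 0.05, and 1001 would be counted with no difference at all. All 3 untransported arrays lay above all 9 carried arrays for 713 genes (3.56%), and below all 9 for 938 genes (4.69%). Such genes were chosen by these same arrays, and their differences are a description. Among them, 516 of the higher and 729 of the lower genes also passed the test, with a median log2 difference of 1.07 and -1.44. The difference was over 4-fold for 60 and 135 of these genes, and over 8-fold for 19 and 17. The gap between the nearest untransported and the nearest carried array was over 1 log2 unit for 44 of the 713 higher and 107 of the 938 lower genes. Of the genes that passed and lay outside the carried range, 214 higher and 417 lower genes have no gene symbol beyond a sequence name. The count of 1914 rested unevenly on the arrays: it was 571 without the untransported ced-1 array, 874 without the untransported dys-1 array and 1130 without the 3 static flight arrays.

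**Figure D1:**
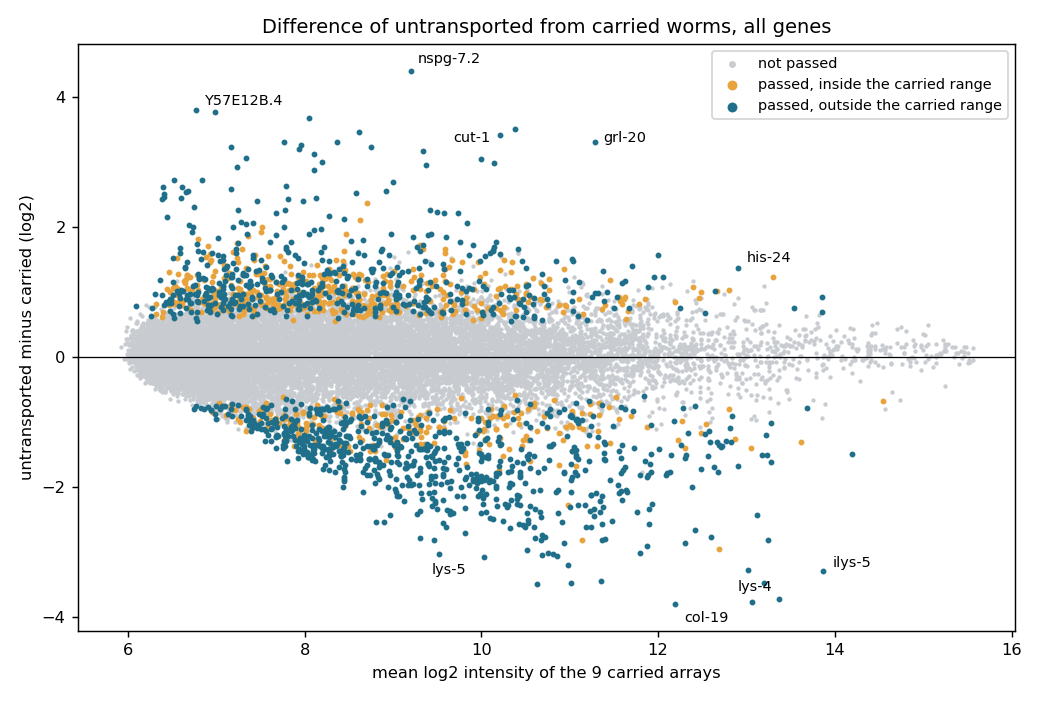
Each point is 1 of 20018 genes, with the mean log2 intensity of the 9 carried arrays on the x axis and the difference of the 3 untransported arrays from them, fitted with strain as a factor, on the y axis. Blue points passed and had all 3 untransported arrays outside the range of the carried arrays, orange points passed inside it, and grey points did not pass. Falls extend from dim genes to bright ones such as lys-4 and ilys-5, and the widest rises are of genes with a carried mean under 12.

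Among the genes that rose and lay wholly above the carried arrays, the leading named ones were a gene of a nematode-specific peptide family, cuticle collagens, a cuticlin and hedgehog-related genes. The largest rise was of nspg-7.2, a member of a nematode-specific peptide family, which had log2 intensities of 13.60, 13.62 and 13.63 in untransported N2, dys-1 and ced-1 worms, against 7.72 to 10.76 in carried worms (median 9.49). It thus stood at almost 1 level in the 3 untransported strains, above every carried array by 2.85, and its difference was 4.41 ± 0.48 (SE, 3 against 9 arrays, limma adjusted p = 8.38e-05), a fold of 21.3. Its neighbour in name, nspg-7.1, had 12.25, 11.48 and 12.07 in untransported worms, against 11.28 to 12.35 in carried worms (median 11.98). That gene did not pass (difference 0.03 ± 0.20, adjusted p = 0.956), and its untransported values lay within the carried ones. If probes are shared between near-identical genes of this family, the single values are uncertain.

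Y57E12B.4, a gene known here by its sequence name only, had 10.56, 10.09 and 11.05 in untransported worms, against 6.47 to 7.39 in carried worms (median 6.83). The groups were apart by 2.70 and differed by 3.80 ± 0.23 (adjusted p = 4.42e-07), a fold of 13.9. mtre-1 had 10.93, 10.24 and 11.11 in untransported worms, against 6.0 to 7.73 in carried worms (median 7.04), a difference of 3.78 ± 0.30 (adjusted p = 9.39e-06). For both genes the dys-1 array was the lowest of the untransported arrays and still far above the highest carried array. T16G1.6 had 8.98, 11.11 and 10.36, against 6.53 to 7.82 (median 7.36), and irg-5, named for its induction by infection, had 11.11, 10.05 and 11.79, against 7.22 to 9.17 (median 8.10). These rose by 2.93 ± 0.32 and 2.88 ± 0.40 (adjusted p = 7.69e-05 and 0.000419), with T16G1.6 highest in the dys-1 strain and irg-5 highest in the ced-1 strain.

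**Figure D2:**
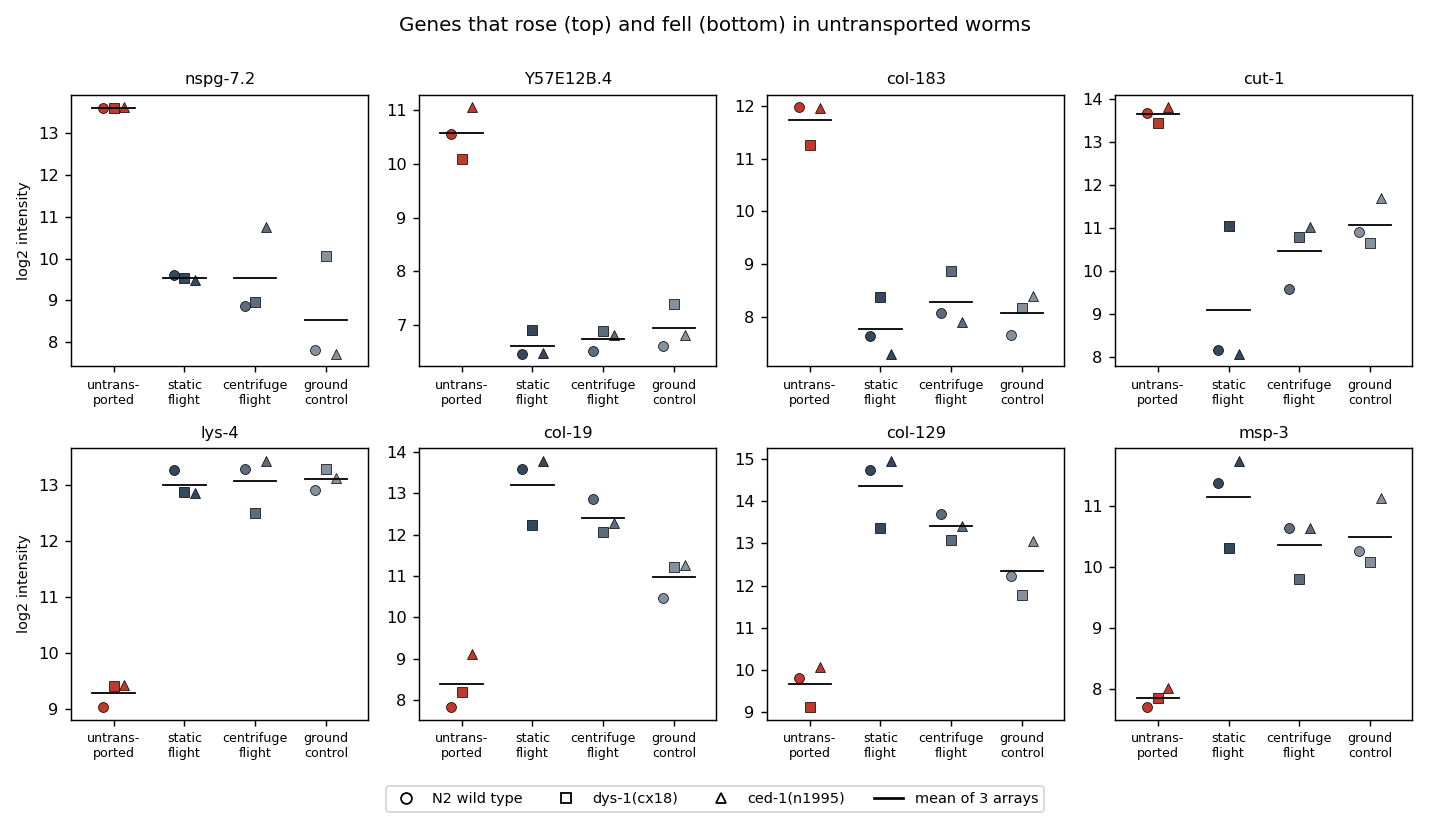
Log2 intensity of 8 genes on each of 12 arrays, in untransported worms (red), static flight, centrifuge flight and ground control, with the strain given by the marker and the mean of 3 arrays by the bar. The upper 4 genes have all untransported arrays above all carried arrays, and the lower 4 have them below. Values of nspg-7.2 are 13.60 to 13.63 in untransported worms, and those of col-19 step down over the carried conditions to the ground control.

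Cuticle collagens moved in both directions. Of 176 genes in the collagen list, 26 rose (14.8%, against 4.81% of all genes) and 47 fell (26.7%, against 4.75%). Wholly above the carried arrays lay 24 (13.6%, against 3.56%), and wholly below them 41 (23.3%, against 4.69%). The median difference over the list was -0.25, against 0.00 over all genes. The collagen col-183 had 11.97, 11.26 and 11.96 in untransported worms, against 7.31 to 8.87 in carried worms (median 8.09), and rose by 3.68 ± 0.28 (adjusted p = 6.01e-06). The collagen col-85 had 11.69, 12.05 and 12.24, against 8.01 to 9.40 (median 8.80), and rose by 3.24 ± 0.20 (adjusted p = 5.73e-07). Both were clear of the carried arrays by over 2 log2 units. The collagen col-84 had 12.25, 11.47 and 12.54, against 6.79 to 10.08 (median 8.78), a rise of 3.47 ± 0.46 (adjusted p = 0.000316). The collagen col-43 had 13.89, 13.55 and 14.22, against 6.85 to 11.94 (median 11.26), a rise of 3.51 ± 0.82 (adjusted p = 0.0139). For col-43 the carried arrays spread widely, with means of 8.81 in static flight, 10.90 in centrifuge flight and 11.42 in the ground control, and its adjusted p was 0.143 without the untransported ced-1 array and 0.0739 without the N2 one. Another 11 genes that rose as far as the named ones were left unnamed because their family already held 3 places.

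The collagens that fell included known adult ones. The collagen col-19, made in the adult epidermis, had 7.83, 8.20 and 9.13 in untransported worms, against 10.48 to 13.78 in carried worms (median 12.22). Its untransported arrays were all lower, by 3.80 ± 0.55 (adjusted p = 0.000582). The collagen col-7, also a collagen of the adult cuticle, had 7.23, 6.93 and 7.26, against 9.08 to 12.06 (median 10.63), and fell by 3.49 ± 0.44 (adjusted p = 0.000206). The collagen col-129 had 9.79, 9.10 and 10.06, against 11.77 to 14.97 (median 13.38), a difference of -3.72 ± 0.48 (adjusted p = 0.000227). The collagen col-88 had 8.38, 7.44 and 7.87, against 10.35 to 12.76 (median 11.24), a difference of -3.45 ± 0.37 (adjusted p = 7.65e-05). In none of these 4 genes did an untransported array reach a carried one.

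The genes bli-6 and rol-1, named for blistered cuticle and rolling movement, were also among the widest falls. The gene bli-6 had 8.05, 7.06 and 7.78 in untransported worms, against 9.82 to 11.73 in carried worms (median 10.54), and rol-1 had 7.73, 7.07 and 8.54, against 9.78 to 12.24 (median 10.84). They fell by 3.05 ± 0.33 and 3.03 ± 0.38 (adjusted p = 7.65e-05 and 0.000203), and the dys-1 array was the lowest for both. The collagens bli-1 and bli-2, of the struts that join the layers of the adult cuticle, had differences of -1.89 ± 0.28 and -1.89 ± 0.33 (adjusted p = 0.000709 and 0.00204). Of the collagens named for a dumpy body, dpy-4, dpy-5 and dpy-13 fell, though not past the threshold without the untransported ced-1 array (adjusted p = 0.186, 0.107 and 0.115) or, for dpy-4, without the N2 one (0.0986), while dpy-7 did not pass (difference -0.06 ± 0.30, adjusted p = 0.932). These collagens were named after their values were seen.

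Of 15 dauer markers, 5 rose (col-2, cut-1, cut-6, scl-1 and icl-1), none fell, and 4 lay wholly above the carried arrays. These are 33.3% and 26.7% of the list, against 4.81% and 3.56% of all genes. The dauer collagen col-2 had 13.09, 13.08 and 13.22 in untransported worms, against 8.55 to 11.79 in carried worms (median 10.35), and rose by 2.99 ± 0.44 (adjusted p = 0.000575). The cuticlin cut-1, a component of dauer alae, had 13.67, 13.44 and 13.81, against 8.07 to 11.69 (median 10.80), and rose by 3.42 ± 0.62 (adjusted p = 0.00274). Both were near 1 level in the 3 untransported strains and were scattered over the carried arrays. The cuticlin cut-6 had 9.80, 9.54 and 10.35, against 7.11 to 8.34 (median 7.65), a rise of 2.22 ± 0.25 (adjusted p = 9.55e-05). The secreted protein gene scl-1 had 8.40, 7.64 and 8.57, against 6.14 to 6.99 (median 6.59), a rise of 1.61 ± 0.20 (adjusted p = 0.000166). For icl-1, of the glyoxylate cycle, the untransported values of 12.34, 14.17 and 14.01 overlapped the carried range of 11.54 to 14.42, and its call (difference 1.01 ± 0.30, adjusted p = 0.0452) was lost when any of 9 single arrays was left out, with an adjusted p of 0.505 without the untransported ced-1 array.

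The other dauer markers did not pass. The desiccation protein gene lea-1 had 13.17, 13.02 and 12.23 in untransported worms, against 12.41 to 13.25 in carried worms (difference -0.10 ± 0.20, adjusted p = 0.816). The superoxide dismutase gene sod-3 had a difference of 0.38 ± 0.34 (adjusted p = 0.557), and the small heat shock gene hsp-12.6 one of -0.43 ± 0.65 (adjusted p = 0.756), with 7.2 in N2 below 9.34 and 9.44 in the mutants. The collagen col-40 had a difference of 0.78 ± 0.24 (adjusted p = 0.0512). The median level of the 15 markers was 8.73, 9.34 and 9.44 on the untransported arrays, inside the carried range of 7.65 to 10.04, whose highest value was that of the dys-1 array in centrifuge flight. The markers that rose were thus chiefly those of the cuticle. A gene outside the list and named after its value was seen, daf-42, which takes its name from a dauer phenotype, had 9.25, 8.69 and 9.78 in untransported worms, against 6.01 to 6.79 in carried worms (median 6.59), and rose by 2.72 ± 0.25 (adjusted p = 2.56e-05).

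The hedgehog-related genes, secreted proteins of nematodes many of which are made in epidermis and glia, also divided. Of 58 genes, 12 rose (20.7%, against 4.81% of all genes) and 8 fell (13.8%, against 4.75%), with a median difference of 0.00. Above all carried arrays lay 11, where 3.56% of all genes did, and 5 lay below (8.62%, against 4.69%). The ground-like gene grl-20 had 14.45, 14.40 and 14.90 in untransported worms, against 8.73 and above in carried worms (median 12.02). The nearest carried array was 1.80 below, and the rise was 3.31 ± 0.66 (adjusted p = 0.00528). The gene grl-9 had 12.59, 11.97 and 12.99, against 7.5 to 10.32 (median 9.53), and grl-25 had 11.35, 10.70 and 11.62, against 7.44 to 9.0 (median 8.12). Their rises were 3.18 ± 0.44 and 3.12 ± 0.32 (adjusted p = 0.00043 and 7.50e-05), and neither overlapped the carried arrays. The rise of grl-17 was 2.69 ± 0.52 (adjusted p = 0.00455). Without the untransported ced-1 array the adjusted p was 0.0724 for grl-20 and 0.059 for grl-17, and the counts of the list were 7 and 3.

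Of 24 moulting genes, 2 rose (8.33%, against 4.81% of all genes) and 3 fell (12.5%, against 4.75%), the third faller being mlt-10. The dual oxidase gene bli-3, which cross-links the cuticle, had 9.95, 9.45 and 9.98 in untransported worms, against 8.03 to 9.29 in carried worms (median 8.5), a rise of 1.2 ± 0.25 (adjusted p = 0.00802). The receptor gene nhr-25, a regulator of moulting, rose by 0.96 ± 0.24 (adjusted p = 0.0192), with 8.12, 9.62 and 8.97, against 7.18 to 8.48. The metalloprotease gene nas-37, which acts in shedding the old cuticle, had 7.31, 7.52 and 7.65, against 7.96 to 9.03 (median 8.51), and the peroxidase gene mlt-7 had 8.52, 9.10 and 8.34, against 9.22 to 10.24 (median 9.55). These fell by 0.99 ± 0.24 and 0.94 ± 0.25 (adjusted p = 0.0164 and 0.0274), below every carried array. All 4 of these calls were lost without the untransported ced-1 array (adjusted p = 0.129 for bli-3, 0.212 for nhr-25, 0.0931 for nas-37 and 0.29 for mlt-7), those of nas-37 and mlt-7 also without the N2 one (0.0864 and 0.102), and those of nhr-25 and nas-37 also without the dys-1 one (0.167 and 0.0639). In the list 2 rose and 0 fell without the N2 array, 1 rose and 1 fell without the dys-1 array, and 0 passed without the ced-1 array.

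Most sperm genes of the list fell. Of 89 genes in the list, 61 fell (68.5%, against 4.75% of all genes) and none rose. Below every carried array lay 60 (67.4%, against 4.69%), and the median difference was -1.35. The median level of the list was 7.82, 7.46 and 7.93 on the untransported N2, dys-1 and ced-1 arrays, against 8.81 to 10.39 on the carried arrays, with no overlap. By strain the list medians were -1.28 for N2, -1.24 for dys-1 and -1.37 for ced-1. All 30 genes of the major sperm protein (msp-) family fell, as did 7 of 9 nspd- and 7 of 11 ssp- genes. Of 34 spe- genes only 12 fell, with a median difference of -0.7. The msp- genes are near-identical in sequence and can share probe signal, so that they are not 30 separate measurements. The major sperm protein gene msp-3 had 7.69, 7.84 and 8.01 in untransported worms, against 9.81 to 11.75 in carried worms (median 10.64), and fell by 2.82 ± 0.28 (adjusted p = 4.34e-05). The sperm-specific gene ssp-34 had 6.83, 7.24 and 6.80, against 9.41 to 11.40 (median 9.65), and fell by 3.07 ± 0.37 (adjusted p = 0.000159). The differences of msd-2 and nspd-2 were -2.61 ± 0.33 and -2.45 ± 0.26 (adjusted p = 0.000227 and 7.65e-05), and both lay wholly below the carried arrays. The count of 61 was between 49 and 65 with any single array left out.

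Markers of male-specific neurons were measured beside sperm, since males also carry sperm. Of 10 such genes none passed and none lay outside the carried range, with a median difference of 0.09. The median level of the list was only 6.56 to 6.94 on the untransported and 6.22 to 6.97 on the carried arrays. At so dim a level a fall could hardly show, so these genes do not tell whether the share of males differed. Their widest difference was 0.89 for cwp-4 (adjusted p = 0.236). The sequence-named genes F08H9.2, F47B3.2 and Y51H7C.13 were among the 12 largest falls. F08H9.2 had 8.71, 8.19 and 9.45 in untransported worms, against 10.63 to 13.13 in carried worms (median 11.70). F47B3.2 had 7.71, 7.47 and 7.49, against 9.85 to 11.38 (median 10.49). Y51H7C.13 had 9.34, 8.25 and 9.27, against 10.92 to 13 (median 11.62). Their differences were -3.01 ± 0.37, -2.97 ± 0.29 and -2.91 ± 0.33 (adjusted p = 0.00018, 4.34e-05 and 9.55e-05), each with a gap of over 1 log2 unit to the nearest carried array. Another 7 genes with falls of this size were left unnamed because their family held 3 places.

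Yolk protein genes were lower as well, but less uniformly. Of 6 vitellogenin genes, which encode yolk proteins made in the adult gut, 5 fell, where 4.75% of all genes did. Below every carried array lay 3 of the 6, where 4.69% of all genes did. The median level of the 6 was 9.59, 8.06 and 9.08 on the untransported N2, dys-1 and ced-1 arrays. On the carried arrays it was 9.61 to 11.60, so that the untransported N2 array came within 0.1 of the lowest carried one. The gene vit-3 had 9.31, 8.10 and 8.46, against 9.40 to 11.31 (median 10.36), and fell by 1.81 ± 0.30 (adjusted p = 0.00131). The gene vit-5 had 9.86, 8.02 and 9.78, against 9.82 to 11.90 (median 10.79), and vit-6 had 10.42, 8.30 and 9.47, against 9.66 to 12.21 (median 11.10). For both the N2 array lay inside the carried range, and the differences were -1.66 ± 0.34 and -1.67 ± 0.45 (adjusted p = 0.00614 and 0.0296). The gene vit-4 fell by 1.38 ± 0.29 (adjusted p = 0.00807). The gene vit-2, brightest of the 6, had 13.20, 12.05 and 12.70, against 12.40 to 14.17, and did not pass (difference -0.71 ± 0.32, adjusted p = 0.191). Only 1 of the 6 genes passed without the untransported dys-1 array, and likewise without the ced-1 array.

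In oocyte, germline and embryo genes the untransported N2 array stood apart from both untransported mutant arrays. With 1 untransported array per strain, a difference of strain and one of the single array cannot be told apart. The median level of 47 genes was 11.32, 9.31 and 9.52 on the untransported N2, dys-1 and ced-1 arrays, against 10.41 to 11.57 on the carried arrays. The N2 array was thus inside the carried range and near its top, and both mutant arrays were below it. Within strains the median difference was 0.43 in N2, -1.02 in dys-1 and -1.39 in ced-1. Over the 3 strains, 4 of the 47 genes fell (8.51%, against 4.75% of all genes), with a median difference of -0.66. Only 1 lay below every carried array (2.13%, against 4.69%). The meiotic cohesin gene rec-8 had 9.03, 8.29 and 7.89 in untransported worms, against 9.30 to 10.40 in carried worms (median 9.66), and fell by 1.33 ± 0.26 (adjusted p = 0.00433). The chitin synthase gene chs-1, which builds the eggshell, had 11.32, 8.99 and 8.42, against 10.42 and above (median 10.91), with a difference of -1.44 ± 0.43 (adjusted p = 0.0493). The egg activation gene egg-5 had 11.16, 9.35 and 10.03, against 10.40 to 12.07 (median 11.38), with a difference of -1.14 ± 0.29 (adjusted p = 0.0206). In chs-1 and egg-5 the N2 array was level with the carried worms and the mutant arrays were below all of them. The count of 4 was 30 without the untransported N2 array, 1 without the dys-1 array and 0 without the ced-1 array; it was 7 without the N2 ground control array and 2 without any of 6 other carried arrays, namely the 3 of static flight, the dys-1 and ced-1 arrays of centrifuge flight and the dys-1 ground control.

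Genes of dividing cells had a similar order of strains, again with 1 untransported array each. The list of 31 cell cycle and replication genes had a median difference of 0.20 for N2, -0.48 for dys-1 and -0.93 for ced-1. Of the 31, 2 fell (6.45%, near the 4.75% of all genes). That count was 6 without the untransported N2 array, 5 without the N2 ground control array and 3 without the ced-1 one, 0 without the untransported dys-1 or ced-1 array, and 1 without any of 6 other carried arrays. The replicative helicase gene mcm-3 had 10.59, 9.57 and 9.50 in untransported worms, against 10.38 to 11.60 in carried worms (median 11.01), with a difference of -1.07 ± 0.27 (adjusted p = 0.0223), and the condensin gene smc-4 one of -0.86 ± 0.26 (adjusted p = 0.0487). Of 41 DNA damage and repair genes, 2 fell, the base excision nuclease gene exo-3 (-1.26 ± 0.30, adjusted p = 0.0159) and the mismatch repair gene msh-2 (-0.67 ± 0.19, adjusted p = 0.0433), a share near the background. None of these 4 genes passed without the untransported ced-1 array (adjusted p = 0.274, 0.396, 0.184 and 0.238) or without the dys-1 array (0.108, 0.129, 0.148 and 0.148). Without the untransported N2 array the adjusted p was 0.0587 for smc-4 and 0.103 for msh-2, and leaving out any of 6 carried arrays for smc-4, or of 5 for msh-2, also ended the call.

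**Figure D3:**
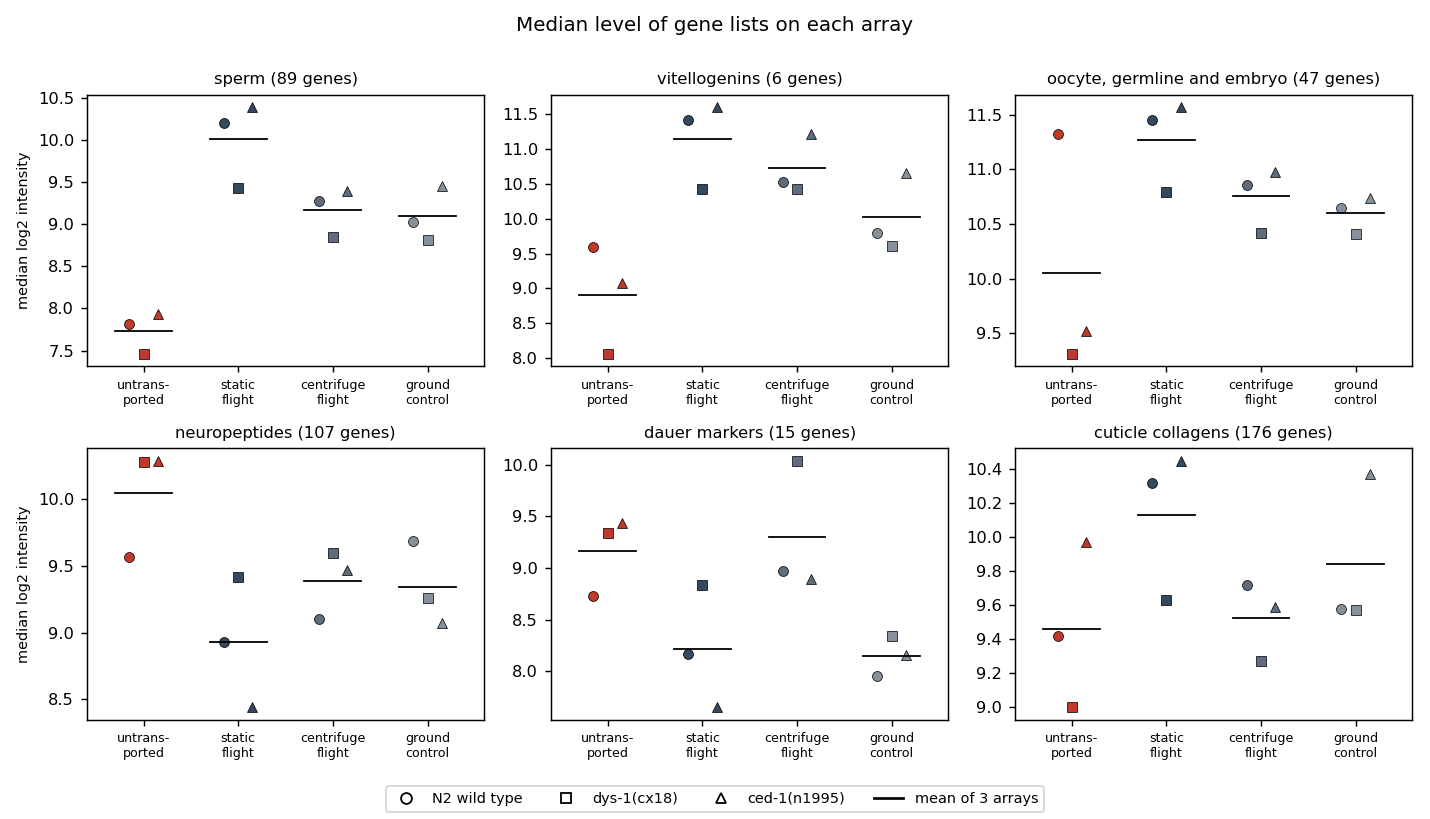
Median log2 intensity of 6 gene lists on each array, in untransported worms (red), static flight, centrifuge flight and ground control, with the strain given by the marker and the mean of 3 arrays by the bar. Sperm medians of 7.46 to 7.93 in untransported worms lie below all carried arrays at 8.81 to 10.39. For oocyte, germline and embryo genes the untransported N2 array is at 11.32 and the mutant arrays at 9.31 and 9.52.

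Among genes of neurons, some of the neuropeptides rose. Of 107 neuropeptide genes, 29 rose (8 of 31 flp- and 21 of 76 nlp- genes) and none fell. The risers were 27.1% of the list, against 4.81% of all genes. Above every carried array lay 14 (13.1%, against 3.56%). The median difference of the list was 0.78, and by strain it was 0.30 (N2), 0.65 (dys-1) and 1.36 (ced-1). The list's median level was 9.57, 10.28 and 10.29 on the untransported N2, dys-1 and ced-1 arrays, against 8.44 to 9.69 on the carried arrays, so that the N2 array lay inside the carried range. The precursor gene nlp-71 had 11.12, 12.14 and 12.46 in untransported worms, against 8.93 to 10.97 in carried worms (median 10.08), and rose by 2.07 ± 0.38 (adjusted p = 0.00325). The precursor gene nlp-68 had 8.94, 10.28 and 9.44, against 6.54 to 8.70 (median 7.62), and rose by 1.88 ± 0.34 (adjusted p = 0.00251). The genes nlp-64 and nlp-39 rose by 1.62 ± 0.28 and 1.51 ± 0.31 (adjusted p = 0.00209 and 0.00619), and all 4 cleared the carried arrays, nlp-39 by only 0.01. Without the untransported ced-1 array the adjusted p was 0.0637 for nlp-71, 0.0506 for nlp-64 and 0.124 for nlp-39. The count of 29 was 2 without the untransported ced-1 array, 6 without the dys-1 array, 19 without the dys-1 array of static flight and 44 without the N2 ground control array.

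Of 38 neurotransmission genes, 5 rose (13.2%, against 4.81% of all genes) and none fell. The gene unc-25, which encodes the enzyme of GABA synthesis, had 10.35, 11.45 and 11.24 in untransported worms, against 8.62 to 10.17 in carried worms (median 9.69), and rose by 1.44 ± 0.28 (adjusted p = 0.00467). The acetylcholine transporter gene unc-17 had 10.69, 11.88 and 11.15, against 9.63 to 10.72 (median 10.33), and rose by 1.05 ± 0.25 (adjusted p = 0.0147). Both had N2 as the lowest untransported array, for unc-17 inside the carried range. The calls of unc-25 (adjusted p = 0.0907) and unc-17 (0.112) were lost without the untransported ced-1 array, where none of the 38 genes passed. The count was 1 without the untransported dys-1 array and 3 without the dys-1 array of centrifuge flight. Of 1320 chemoreceptor genes, 3 rose (0.227%, under the 4.81% of all genes) and none fell. The median level of this list was only 6.22 to 6.4 on the untransported and 6.25 to 6.47 on the carried arrays. Most of these genes were thus dim, and the low share does not show that they were unchanged.

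Insulin-like peptides, ligands of the DAF-2 receptor that controls dauer entry, included risers. Of 40 peptide genes, 7 rose (17.5%, against 4.81% of all genes) and none fell. The peptide gene ins-30 had 10.96, 11.67 and 11.32 in untransported worms, against 8.96 to 9.85 in carried worms (median 9.34), and rose by 1.89 ± 0.21 (adjusted p = 9.34e-05). The peptide gene ins-35 had 10.27, 10.63 and 10.67, against 7.61 to 9.61 (median 9.05), and rose by 1.66 ± 0.34 (adjusted p = 0.00669). Neither overlapped the carried arrays. The genes ins-4 and ins-24 rose by 1.52 ± 0.38 and 1.14 ± 0.28 (adjusted p = 0.0211 and 0.0182). With the untransported ced-1 array left out 2 of the 40 passed, and the adjusted p was 0.0829 for ins-35, 0.203 for ins-4 and 0.209 for ins-24.

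Of 23 genes of insulin and dauer signalling, 4 rose by about 2-fold or less (17.4%, against 4.81% of all genes). The receptor gene daf-2 had 8.87, 9.27 and 8.86 in untransported worms, against 7.28 to 8.71 in carried worms (median 8.28), a rise of 0.88 ± 0.23 (adjusted p = 0.024). The kinase gene pdk-1, which acts below the receptor, had 10.14, 10.26 and 9.69, against 8.21 to 9.50 (median 9.14), a rise of 1.00 ± 0.23 (adjusted p = 0.0122). The Smad gene daf-14 and the Sno gene daf-5, of the dauer TGF-beta pathway, rose by 0.98 ± 0.26 and 0.89 ± 0.26 (adjusted p = 0.0283 and 0.0439). The transcription factor gene daf-16 did not pass (difference -0.12 ± 0.20, adjusted p = 0.783). The count of 4 was 2 without the untransported N2 array, 0 without the dys-1 array, 0 without the ced-1 array and 7 without the ced-1 array of centrifuge flight.

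Of 10 dod- genes, named for lying downstream of DAF-16, 5 rose and none fell, where 4.81% of all genes rose and 4.75% fell. The median difference of the list was 0.73. The gene dod-22 had 11.03, 11.09 and 11.07 in untransported worms, against 8.65 to 9.75 in carried worms (median 9.11), and rose by 1.85 ± 0.21 (adjusted p = 0.000128). It lay at 1 level in the 3 strains and clear of the carried arrays. The gene dod-21 had 10.18, 7.87 and 10.23, against 6.91 to 8.13 (median 7.55), so that the dys-1 array fell inside the carried range, and rose by 1.93 ± 0.34 (adjusted p = 0.00204). The rises of dod-17 and dod-20 were 1.24 ± 0.27 and 1.15 ± 0.25 (adjusted p = 0.00913 and 0.00857). Only 2 of the 10 passed without the untransported ced-1 array, and dod-17 and dod-20 did not (adjusted p = 0.0932 and 0.0683).

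Gut lysozymes held some of the widest falls. The lysozyme gene lys-4 had 9.03, 9.42 and 9.43 in untransported worms, against 12.49 to 13.43 in carried worms (median 13.12). The gap of 3.06 was the widest of any gene in either direction, and the difference was -3.77 ± 0.21 (adjusted p = 4.31e-07), a fold of 13.6. The lysozyme gene lys-5 had 6.79, 6.48 and 6.19, against 8.92 to 10.14 (median 9.58), and fell by 3.03 ± 0.25 (adjusted p = 9.75e-06). The invertebrate-type lysozyme gene ilys-5 had 10.70, 9.72 and 11.33, against 13.07 to 14.22 (median 14.05), and fell by 3.29 ± 0.25 (adjusted p = 6.01e-06). For lys-4 the carried conditions lay close together, with means of 13 in static flight, 13.07 in centrifuge flight and 13.11 in the ground control. Among the other lysozyme genes, lys-6 and ilys-2 also fell and ilys-4 rose, calls that were lost without the untransported ced-1 array (adjusted p = 0.0623, 0.134 and 0.11) and for ilys-4 also without the dys-1 one (0.0761). The genes lys-7 and lys-1 did not pass. The gene lys-7 had 14, 13.82 and 13.91 in untransported worms, against 12.14 to 14.06 in carried worms (difference 0.72 ± 0.30, adjusted p = 0.149), and lys-1 a difference of -0.26 ± 0.23 (adjusted p = 0.565), and these 5 genes were named after their values were seen.

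Over the whole list of 109 antimicrobial peptide and lysozyme genes, 6 rose and 12 fell, where 4.81% of all genes rose and 4.75% fell. The median difference of the list was -0.06. The saposin-like gene spp-20 had 9.60, 8.19 and 9.40 in untransported worms, against 6.43 to 7.51 in carried worms (median 6.72), and rose by 2.31 ± 0.24 (adjusted p = 7.65e-05). In that list 2 rose and 5 fell without the untransported ced-1 array, and 3 rose without the dys-1 untransported array or the dys-1 array of static flight. Of 258 C-type lectin genes, whose products include secreted proteins of immunity, 21 rose (8.14%, against 4.81% of all genes) and 8 fell (3.1%, against 4.75%), with 16 above (6.2%, against 3.56%) and 11 below (4.26%, against 4.69%) every carried array. The shares that fell or lay below were thus no higher than those of all genes. The lectin gene clec-72 had 11.97, 11.89 and 12.01, against 8.93 to 10.43 (median 9.95), and rose by 2.22 ± 0.30 (adjusted p = 0.000338). The lectin gene clec-166 had 8.06, 8.82 and 8.96, against 9.70 to 11.11 (median 10.77), and fell by 2.04 ± 0.27 (adjusted p = 0.000301). The rises of clec-174 and clec-101 were 2.18 ± 0.38 and 2.04 ± 0.25 (adjusted p = 0.00197 and 0.00018), and none of the 4 overlapped the carried arrays. Lectin counts were 11 higher and 4 lower without the untransported ced-1 array and 13 higher without the dys-1 one. In the intracellular pathogen response 2 of 39 genes rose, a share near the background.

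Gut proteases did not move as a group, with 2 of 26 rising (7.69%, against 4.81% of all genes) and 1 falling (3.85%, against 4.75%). The cathepsin B-like gene cpr-5 had 11.42, 11.61 and 11.94 in untransported worms, against a median of 13.23 and a highest value of 13.79 in carried worms, and fell by 1.62 ± 0.25 (adjusted p = 0.000848). Its untransported arrays were below every carried one by at least 0.66. The cathepsin B-like gene cpr-3 rose by 1.29 ± 0.25 (adjusted p = 0.00459). The metallothionein gene mtl-2, a metal-binding protein gene of the gut, had 7.75, 8.45 and 7.71, against 8.99 to 9.98 (median 9.60), and fell by 1.61 ± 0.25 (adjusted p = 0.000756). In the metal response list of 14 genes, mtl-2 fell and cdr-4 rose (7.14% each, against 4.75% and 4.81% of all genes). The gene cdr-4 did not pass without the untransported dys-1 or ced-1 array (adjusted p = 0.124 and 0.263). The call of cpr-3 was lost without the untransported ced-1 array (adjusted p = 0.0797).

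Of 12 hypoxia genes, 5 rose (41.7%, against 4.81% of all genes) and none fell, with a median difference of 0.52. The oxygen sensor gene egl-9 had 9.21, 10.07 and 9.97 in untransported worms, against 8.5 to 9.83 in carried worms (median 8.69), and the receptor gene nhr-57, a target of the hypoxia factor HIF-1, had 8.44, 10.39 and 10.06, against 7.62 to 9.15 (median 8.11). The rises were 0.84 ± 0.20 and 1.35 ± 0.26 (adjusted p = 0.0139 and 0.00456), and in both the N2 array lay inside the carried range while the mutant arrays lay above it. The prolyl hydroxylase gene phy-2 had 10.53, 10.64 and 10.71, against 9.11 to 10.13 (median 9.72), and rose by 0.90 ± 0.22 (adjusted p = 0.0158). The gene hif-1 itself did not pass (difference 0.25 ± 0.23, adjusted p = 0.556). None of the 12 passed without the untransported ced-1 array and 2 without the dys-1 one.

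Families of detoxification and of nuclear receptors held more risers than fallers, where 4.81% of all genes rose and 4.75% fell. Of 75 cytochrome P450 genes 8 rose and 1 fell, of 44 glutathione S-transferase genes 7 rose and none fell, and of 67 UDP-glucuronosyltransferase genes 5 rose and 1 fell. The shares that rose were 10.7%, 15.9% and 7.46%. The P450 gene cyp-33C1 had 7.91, 8.91 and 9.42 in untransported worms, against 6.11 to 7.48 in carried worms (median 6.51), and rose by 2.00 ± 0.30 (adjusted p = 0.000755). The gene cyp-13A5 rested on 1 strain, with 8.32, 11.41 and 8.82, against 6.80 to 8.53, and an adjusted p of 0.0168 that was 0.21 without the untransported dys-1 array and 0.059 without the ced-1 one. The transferase gene gst-35 had 7.37, 8.0 and 8.74, against 6.08 to 6.97 (median 6.79), and rose by 1.39 ± 0.23 (adjusted p = 0.0014). Without the untransported ced-1 array the higher counts were 5 for P450 and 2 for glutathione S-transferase genes, and without the dys-1 array 2 for glutathione S-transferase and 2 for glucuronosyltransferase genes. Glutathione S-transferase genes had 4 without the untransported N2 array.

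Of 279 nuclear hormone receptor genes, 31 rose (11.1%, against 4.81% of all genes) and 1 fell, and 21 lay above (7.53%, against 3.56%) and 1 below every carried array. The receptor gene nhr-17 had 8.82, 11.15 and 9.78 in untransported worms, against 7.40 to 8.62 in carried worms (median 8.26), and rose by 1.69 ± 0.31 (adjusted p = 0.00281). The receptor gene nhr-92 had 9.85, 10.55 and 9.89, against 7.71 to 9.30 (median 8.90), and rose by 1.35 ± 0.24 (adjusted p = 0.00263). The dys-1 array was the highest in both. The count of 31 was 6 without the untransported ced-1 array, 9 without the dys-1 array and 19 without the dys-1 array of static flight.

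General stress genes passed at shares near or under those of all genes. Of 20 heat shock genes 1 rose, hsp-43 (5.0% of the list, near the 4.81% of all genes). Its difference was 0.82 ± 0.22 (adjusted p = 0.0309). The call was lost when any of 4 single arrays was left out, with an adjusted p of 0.297 without the untransported ced-1 array. The chaperone gene hsp-70 had 8.46, 9.67 and 9.67 in untransported worms, against 7.62 to 11.63 in carried worms (difference -0.46 ± 0.50, adjusted p = 0.641). The heat-induced chaperone gene hsp-16.2 had 7.98, 9.45 and 8.37, against 7.36 to 11.20 (difference -1.36 ± 0.47, adjusted p = 0.0841). For both the carried arrays spread over several log2 units and held all untransported values. No gene passed among 18 of endoplasmic reticulum stress, 18 of oxidative stress, 8 of the osmotic response, 8 of trehalose metabolism, 32 of the respiratory chain or 27 of autophagy and lysosome. In lists this small a count of 0 is not far from the shares of all genes, 4.81% higher and 4.75% lower. In the autophagy list 4 genes nevertheless lay above every carried array (14.8%, against 3.56% of all genes), and its median difference was 0.46.

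Muscle and cell death genes, which the mutant strains bear on, passed at shares near or under those of all genes. Of 42 sarcomere genes 1 fell, the troponin gene mup-2 (2.38% of the list, against 4.75% of all genes). Its difference was -0.78 ± 0.22 (adjusted p = 0.034). The call was lost when any of 5 single arrays was left out, with an adjusted p of 0.217 without the untransported ced-1 array. Below every carried array lay 3 sarcomere genes (7.14%, against 4.69%), and 1 lay above every one (2.38%, against 3.56%). The 16 dystrophin complex genes had a median difference of 0.43. Their median level was 8.57, 9.21 and 8.99 on the untransported N2, dys-1 and ced-1 arrays, against 8.27 to 8.82 on the carried arrays. Of these 16 genes 1 rose, dys-1 itself (6.25% of the list, against 4.81% of all genes). The difference of dys-1 was 0.69 ± 0.21 (adjusted p = 0.0493), and its 2 features had differences of 0.18 and 1.2. Its higher level was that of the mutant arrays, since the N2 value of 7.51 lay inside the carried range, and the call was lost when any of 10 single arrays was left out. Of 21 apoptosis and engulfment genes 1 rose, the GTPase gene ced-10 (4.76% of the list, near the 4.81% of all genes). The difference of ced-10 was 0.75 ± 0.19 (adjusted p = 0.0211, 0.219 without the untransported dys-1 array and 0.0984 without the ced-1 one). Of 47 histone genes 1 rose and 1 fell (2.13% each, under the 4.81% and 4.75% of all genes). The riser was the linker histone gene his-24, with 13.82, 14.80 and 14.24 in untransported worms, against 12.61 to 13.30 in carried worms (median 12.76), a rise of 1.38 ± 0.20 (adjusted p = 0.000552). Of 75 ribosomal protein genes 1 fell (1.33%, under the 4.75% of all genes).

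Lipid, transthyretin-like, astacin and F-box genes passed in both directions and in small numbers. Of 46 genes of lipid metabolism and fasting, 4 rose (8.7%, against 4.81% of all genes) and 2 fell (4.35%, near the 4.75% of all genes). The desaturase gene fat-6 had 13, 14.55 and 13.93 in untransported worms, against 12.25 to 13.33 in carried worms (median 12.78), with a rise of 1.03 ± 0.28 (adjusted p = 0.0286). The elongase genes elo-4 and elo-7 went opposite ways, by 1.36 ± 0.24 and -1.21 ± 0.28 (adjusted p = 0.00227 and 0.0138). No lipid gene was higher past the threshold without the untransported ced-1 array, and elo-7 had an adjusted p of 0.209. Of 59 transthyretin-like genes 4 rose (6.78%, against 4.81% of all genes) and 3 fell (5.08%, against 4.75%). Of 36 astacin genes 1 rose (2.78%) and 2 fell (5.56%). Of 442 F-box and MATH genes 7 rose (1.58%) and 1 fell (0.226%), both under the shares of all genes. Of 23 genes of glycolysis, gluconeogenesis and the glyoxylate cycle 1 rose (icl-1, 4.35% of the list). The transthyretin-like gene ttr-14 had 6.58, 6.66 and 7.76, against 8.02 to 10.05 (median 9.02), and fell by 2.03 ± 0.32 (adjusted p = 0.000953), while ttr-29 rose by 1.52 ± 0.26 (adjusted p = 0.00184). The higher counts of the F-box list were 0 without the untransported ced-1 array, 2 without the dys-1 one and 4 without the dys-1 array of centrifuge flight, those of the transthyretin-like list 1 and 2 without the untransported ced-1 and dys-1 arrays, and that of the lipid list 2 without the dys-1 array of static flight. The astacin genes nas-27 and nas-24 had differences of -1.60 ± 0.31 and 1.49 ± 0.23 (adjusted p = 0.00441 and 0.000778).

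**Figure D4:**
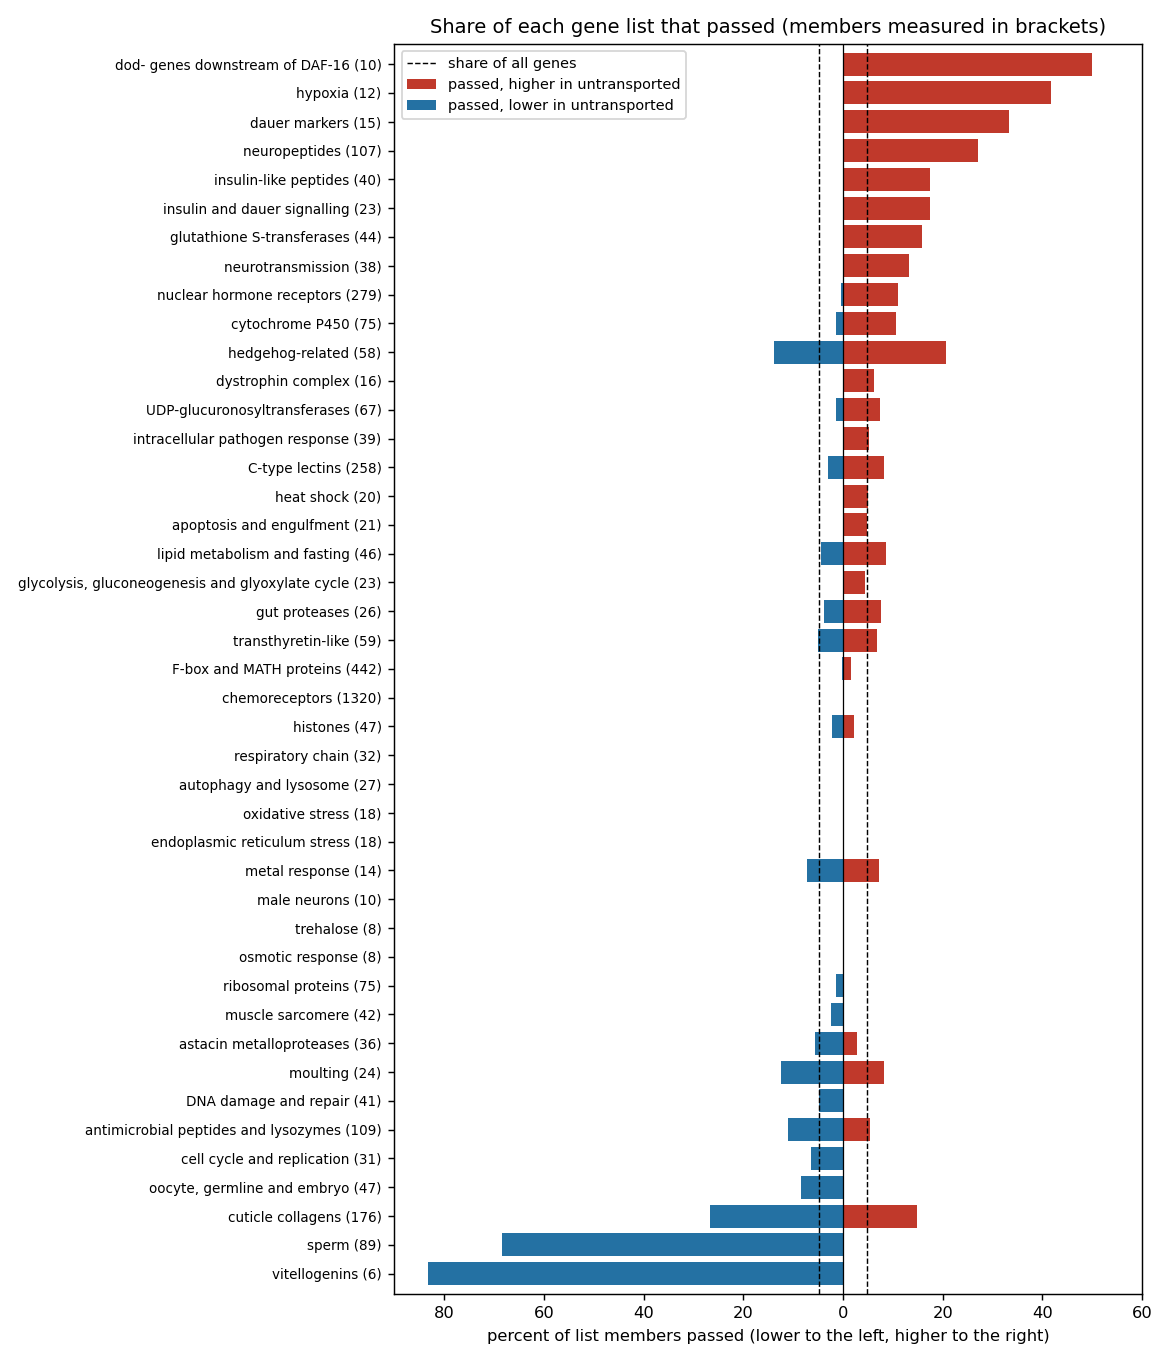
Percent of the members of each of 43 gene lists that passed the test, higher in untransported worms to the right (red) and lower to the left (blue), with the number of members in brackets. The dashed lines mark the share of all 20018 genes, 4.81% higher and 4.75% lower. Vitellogenins (5 of 6) and sperm genes (61 of 89) extend farthest to the left, and dod- genes (5 of 10) farthest to the right.

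The carried worms were not 1 uniform group, and the distance to untransported worms differed with their condition. Among the 729 genes that passed and lay below all carried arrays, static flight was the farthest of the 3 carried conditions for 662 (90.8%), against 47.7% of all genes. Centrifuge flight was the nearest for 404 of them (55.4%, against 41.0% of all genes) and the ground control for 308 (42.2%, against 35.3%). Their median difference was -1.93 from static flight, -1.17 from centrifuge flight and -1.26 from the ground control. Among the 516 higher genes static flight was farthest for 315, and the medians were 1.18, 0.98 and 1.04. All 3 conditions are set against the same untransported arrays, and their differences from each other were not tested here.

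By gene, this took several forms. The collagen col-19 and the cuticlin cut-1 stepped across the conditions. Means of col-19 were 8.39 in untransported worms, against 13.19 in static flight, 12.40 in centrifuge flight and 10.98 in the ground control. Those of cut-1 were 13.64, against 9.10, 10.46 and 11.08. The whole collagen list, which moved in both directions, had medians of -0.33 from static flight, -0.11 from centrifuge flight and -0.33 from the ground control. Sperm genes had list medians of -1.71 from static flight, -1.12 from centrifuge flight and -1.27 from the ground control. In the genes lys-4, ilys-5 and T16G1.6 the 3 carried conditions were alike to within 0.3. The gene irg-5 had static flight nearest, with 10.99 in untransported worms, against 8.96, 7.75 and 7.59. The gene nspg-7.2 had the ground control farthest, with 13.62, against 9.54, 9.53 and 8.54.

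**Figure D5:**
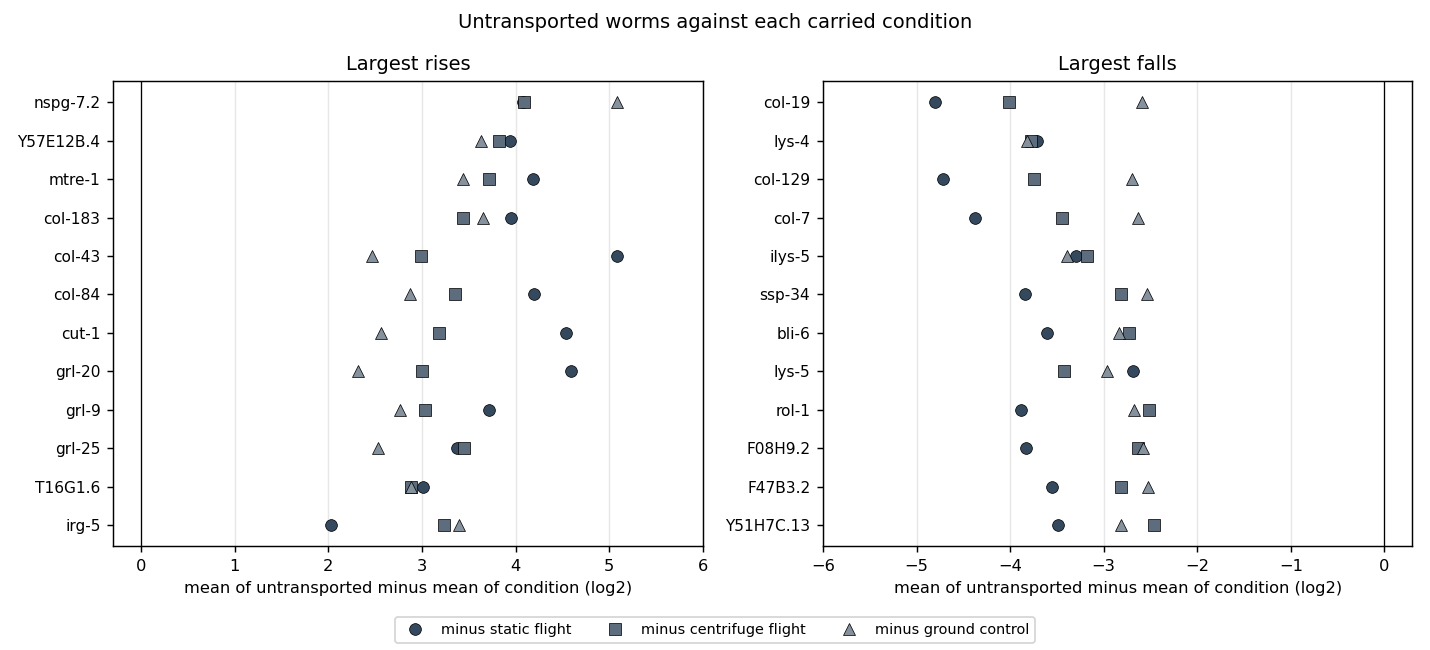
Mean log2 intensity of the 3 untransported arrays minus that of static flight (circles), centrifuge flight (squares) and ground control (triangles), for the 12 genes named as largest rises and the 12 named as largest falls. Every difference is above 0 for the rises and below 0 for the falls. The markers lie close together for lys-4 and ilys-5 and are spread for col-19, col-129, col-43 and grl-20.

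The test of whether the difference from carried worms depended on strain passed no gene (limma, adjusted p under 0.05; 0.0% of 20018 genes), with 887 genes at a p under 0.05 before adjustment and a lowest adjusted p of 0.692. With 1 untransported array per strain the test has little to go on, and missing the threshold does not show that the strains moved alike. The strain values given for oocyte, neuropeptide and cell cycle genes are accordingly a description of single arrays. Over the 516 higher genes the median difference was 0.86 for N2, 1.11 for dys-1 and 1.30 for ced-1. Over the 729 lower genes it was -1.47, -1.33 and -1.62.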

How the data were processed

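Total RNA of 12 worm samples was labelled with Cy3 and hybridised to 1 single-colour NimbleGen array each. The authors deposited a linear intensity for each of 23187 features, normalized with RMA per the submitters' processing notes, whose version is not given in the sources used here. This method makes the distributions of the arrays alike, so a change of total RNA per worm is not visible. Intensities ran from 39.8 to 59366.3, with no detection flags, so that a dim gene cannot be called absent, and precision is set by how many arrays there are. The series value table, deposited as intensity, held 18185 of these features and differed by at most 1.3e-06 on the log2 scale. Slides and scans are not described in the sources used here.

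From the deposited intensity, log2 values with no pseudocount were averaged per WormBase gene, giving 20018 genes, 2273 of them with several features. The RefSeq gene table (assembly WBcel235) named 19431 genes, and 587 kept the name in the array file. No genome or promoter sequences were used. The model was fitted to all genes in limma 3.58.1 under R 4.3.3, untransported against all carried arrays with strain as a factor (8 residual and 6.89 prior degrees of freedom), and again with strain by transport terms. Adjustment was by Benjamini-Hochberg over all genes. The strain is the replicate number of the labels, since same-numbered arrays hold the same strain, and it is the block of the fit.

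The members and the 43 gene lists were chosen with earlier results of these data known. Genes named were the 12 largest rises and falls among genes that passed with all 3 untransported arrays outside the carried range, at most 3 of a numbered family, the 5 with the widest gap in each direction, up to 4 members of each list, the 3 with the smallest interaction p (F07B7.2, Y54G2A.36 and gpd-4, which did not pass), dys-1 and ced-1. Lists were described by counts and medians, with no test of the list. Both fits were tested on simulated data first. Of 100 genes changed 2-fold and 100 changed 4-fold, the main fit recovered 58% and 100%, with 4 false calls. The strain by transport fit, with the changes put on a single untransported array, recovered 0% and 1%. Alternatives were another normalization, filter, feature summary and variance model, and leaving out arrays, conditions or strains.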

Additional observations from a re-analysis of the deposited data

Results flagged for a closer look

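Over the 9 carried arrays of each of the 157 named genes, 5 held an array whose distance to the nearest other was a large share of the whole range (Dixon's test at 95%, which flags about 1 in 20 by chance). Y57E12B.4 had 7.39 on the dys-1 ground control array and 6.47 to 6.91 on the other carried arrays. For dnj-7, an endoplasmic reticulum chaperone gene that did not pass, the ced-1 array of static flight had 7.86 and the others 9.48 to 10.07. The P450 gene cyp-33C4 had 8.25 on the N2 array of centrifuge flight and 6.91 to 7.53 on the others. The F-box genes fbxa-105 and fbxa-152 had 8.23 on the N2 array of static flight (others 6.72 to 7.23) and 7.89 on the N2 ground control array (others 6.42 to 7.14). In Y57E12B.4 the high array was still 2.70 below the lowest untransported one. Groups of 3 untransported arrays are too small for this test.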

How the results depend on the processing

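The count of 1914 genes was 1556 with no replicate block, and between 571 and 2405 with 1 array left out, lowest without the untransported ced-1 array and 874 without the dys-1 one; 566 and 832 of these genes were among the 1914. It was 1130 without static flight, 606 without all LS292 arrays and 760 without all MT4930 arrays. Array weights gave 2858, 4 separate conditions 2497, and quantile normalization, median centring, a trended variance, an offset of 50, the highest feature per gene and the value table between 1793 and 1992. The count of 1651 genes outside the carried range was 1075 among 8959 genes with a mean log2 of at least 8, between 1715 and 4068 with 1 array left out, and 4836, 3464 and 3025 without N2, LS292 and MT4930. Of 125 named genes that passed, 50 passed under every setting, 20 lost the call with no replicate block, 66 without the untransported ced-1 array and 42 without the dys-1 one. In 4356 comparisons of a named gene with an alternative, 463 lost and 34 gained a call and none changed sign, and 111 of 1160 list medians moved by more than the spread between strains. The interaction passed 0 genes under every setting run, but this test could hardly pass a gene in the simulated data either. The cause of the lower counts without single arrays was not tested.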

Other observations

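Gene families outside the fixed lists, chosen after their values were seen, gave further groups. Of 33 globin (glb-) genes, 7 rose and none fell, where 4.81% of all genes rose and 4.75% fell. The globin gene glb-1 had 11.21, 11.84 and 12.00 in untransported worms, against 9.16 to 9.85 in carried worms (median 9.36), a rise of 2.27 ± 0.21 (limma adjusted p = 2.98e-05). All 7 nspa- genes, a nematode-specific peptide family, fell, by 1.58 to 1.82, and these near-identical genes can share probe signal. Of 9 ttbk- genes, of the tau tubulin kinase family, 5 fell, against 4.75% of all genes lower. Of 80 nssp- genes 20 rose and none fell, against 4.81% of all genes higher.

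Regulators of developmental timing, also chosen after their values were seen, differed between genes. The RNA-binding gene lin-28, which acts in early larvae, had 7.57, 9.09 and 7.53 in untransported N2, dys-1 and ced-1 worms, against 6.47 to 7.02 in carried worms, a rise of 1.28 ± 0.27 (adjusted p = 0.00836). The gene mab-10, a cofactor in the change to the adult, had 9.93, 8.98 and 9.87, against 9.98 to 10.97, and fell by 0.81 ± 0.23 (adjusted p = 0.0402). The transcription factor gene lin-29, which turns on adult collagens such as col-19, had a difference of 0.18 ± 0.21 (adjusted p = 0.666), and lin-14 one of 0.39 ± 0.26 (adjusted p = 0.401).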
